A study of Danio rerio with 6 samples.

Results

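Keratins are the intermediate filament proteins of epithelial cells. A type I keratin pairs with a type II keratin, the pairs polymerise into filaments, and the filaments are anchored to desmosomes between cells and to hemidesmosomes at the basement membrane. The skin of a zebrafish larva has an outer periderm lying on basal keratinocytes, and both layers are rich in keratins. The genes described here are those whose name starts with krt, with krtap and krtcap names left out, together with cyt1, cyt1l, icn and icn2. The rule takes 25 of the 38157 genes in the deposited table, and it leaves out 1 krtcap gene.

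The study compared larvae of a sirt6 mutant line, made with CRISPR/Cas9, with wild-type (WT) larvae, all at 3 days post fertilisation. RNA came from tails that included the blood-forming tissue, and 3 libraries per genotype were sequenced. The zygosity of the mutants, the strain and the number of larvae per library were not given in the sources used here. Fewer cells of a type and less RNA per cell cannot be told apart in such bulk samples.

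The deposited annotation gives 19 of the 25 genes as type I keratins and 3 (krt4, krt5 and krt8) as type II. The genes icn and icn2 are annotated as ictacalcins, calcium-binding proteins of the S100 family, and so are not keratins, although they are known from skin. The remaining gene, krt222, is annotated only as a keratin-like protein. The name rule does not take every keratin, since 14 further gene models carry a keratin annotation, 6 of them unnamed models on alternate contigs, which hold second versions of genome regions, and 8 under other names. All 25 had reads in at least 1 library, and 23 had reads in all 6. The filter of a mean of at least 0.5 FPKM was passed by 22. FPKM are fragments per kilobase of gene, scaled to a size for each library. Members were called abundant from a mean of 100 FPKM over the 6 libraries (11 genes), rare below 10 FPKM (9 genes, 6 of them tested) and middle in between (5 genes).

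The libraries held 12438359 to 14655293 reads in genes. Wild-type libraries 2 and 3 resembled each other most, with a chi-square on reads of 2.9 for each degree of freedom, as did mutant libraries 1 and 3, at 3.6, whereas the other pairs had 16.3 to 41.2. Wild-type library 1 was nearer to mutant libraries 1 to 3, at 21.3, 16.3 and 29.1, than to wild-type libraries 2 and 3, at 40.3 and 41.2. All pairs differed by more than sampling noise, which would give about 1. Genes averaging at least 100 FPKM stood a median of 0.23 above their 6-library mean on the log2 scale in wild-type library 1 and in mutant library 2, and the other 4 libraries lay between -0.15 and -0.08. The library size behind the FPKM was 0.955 and 0.952 times the reads in genes in these 2 libraries, against 1.02 to 1.06 elsewhere. A smaller size gives a higher FPKM for the same reads. Over all genes tested the median deviation was 0.0 in wild-type library 1 and 0.01 in mutant library 2. The part of library size in the levels of these 2 libraries was not tested. The sirt6 transcript had 50 to 131 reads per library, at 3.85 ± 1.78 FPKM in WT and 3.32 ± 0.251 in mutants (SD, n = 3), and does not check the labels without the position of the lesion. Markers of epidermis were present, with a summed level of 413.8 to 456.4 FPKM in WT and 401.9 to 493 in mutants, although ehf was listed at 0 and epcam at or near 0. Muscle markers summed to 17210 to 22980 FPKM over all libraries, while the muscle light chain gene mylpfa was near 0. Photoreceptor markers, not a tail cell type, summed to 1030 to 1284 FPKM in WT and 1448 to 1728 in mutants, with rho, the rod opsin gene, at 390.6 ± 154.2 and 848.9 ± 66.5 FPKM. Of the 5 markers, 3 had higher means in mutants and 2 had lower means. The 2 were opn1sw1, at 585.4 FPKM in WT and 560.1 in mutants, and gnat2, at 118.4 and 109.6. The part of these eye transcripts in the results below was not tested.

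Keratin levels spanned a wide range, from krt4 with a mean of 2957 FPKM to krt95 with a single read in 1 library. Together the 25 genes took 1.5% to 1.76% of the reads in genes in the wild-type libraries and 1.59% to 1.79% in the mutant libraries. Their summed level was 10380, 7827 and 7634 FPKM in WT libraries 1 to 3 and 8202, 9903 and 7781 FPKM in mutant libraries 1 to 3. The genotypes overlapped, and wild-type library 1 and mutant library 2 were the highest of their groups. All 11 abundant members were highest in 1 of these 2 libraries, and 18 of the 22 tested members were. The median deviation of the abundant members there was 0.38 and 0.22, beside 0.23 and 0.23 for the 500 genes of at least 100 FPKM. The share of all genes highest in these libraries was not counted, so the counts are not read as a trait of keratins.

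**Figure D1:**
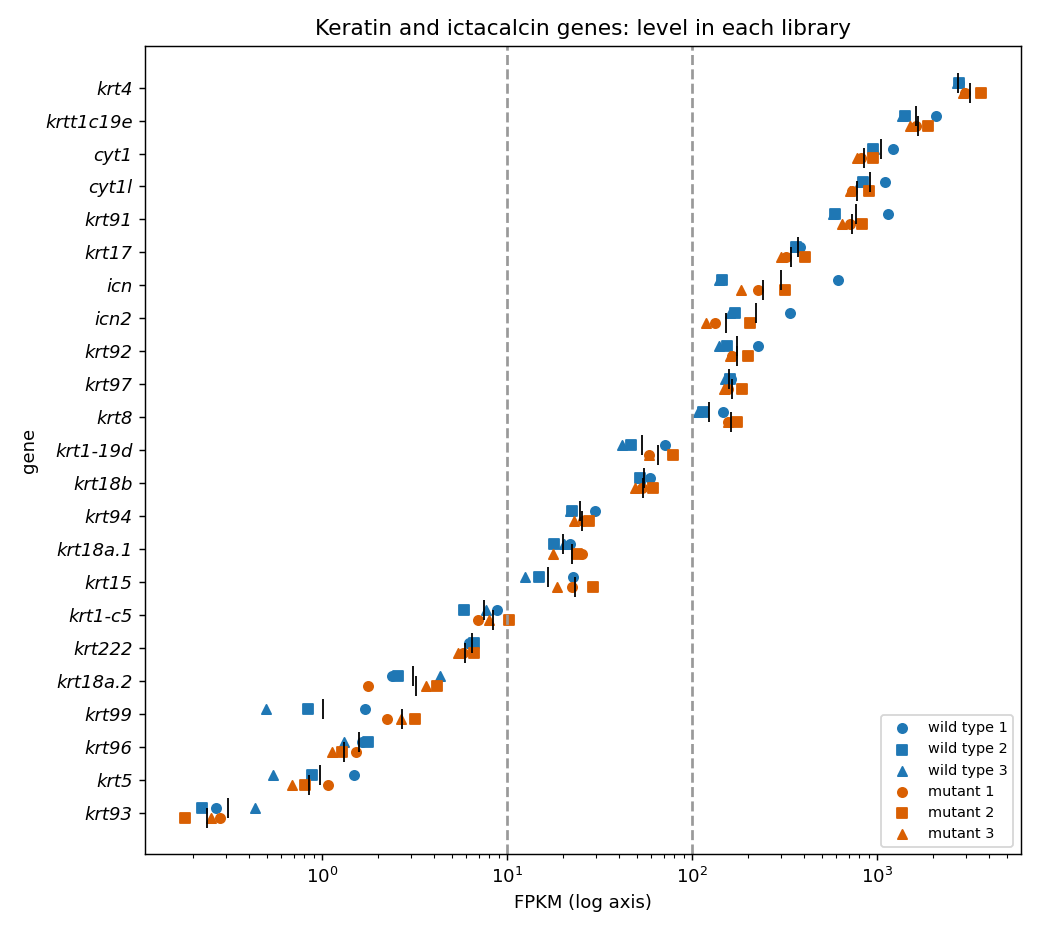
Level in each library of the 23 genes with reads in all 6 libraries, in FPKM on a log axis. Blue marks are wild type, orange marks are mutant, black ticks are group means (n = 3), and dashed lines mark 10 and 100 FPKM; the groups overlap for most genes, while krt4, krt8 and krt99 are higher in every mutant library.

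None of the 22 tested members passed limma between the genotypes, with 0 higher and 0 lower, beside 0.0% of all 23855 genes tested. The smallest adjusted p among the members was 0.733. At an unadjusted p under 0.05 there were 2 members, krt8 and krt99, both higher in mutants, beside 5.73% of all genes, of which 2.45% were higher and 3.28% lower. With limma voom on reads recovered from the FPKM, 0 members passed. The genotypes stood apart, with all mutant libraries above all WT libraries, for 3 tested members, krt4, krt8 and krt99, or 13.6% of the members, and no member was apart as lower. Over all genes 10.6% stood apart, 5.16% as higher and 5.4% as lower.

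The median difference was near 0 for abundant and for rare members alike. The median log2 fold change, mutant minus wild type, was 0.02 over the 11 abundant members, 0.14 over the 5 middle members and -0.03 over the 6 tested rare members. Over all genes tested it was 0, and over the 500 genes of at least 100 FPKM it was -0.01. The 0 over all genes follows from the scaling of the deposited values, whose median-of-ratios factor was 1 in every library. The mean was higher in mutants on the log scale for 6 abundant, 4 middle and 3 rare members, and lower for 5, 1 and 3. The range was -0.49 to 0.41 in the abundant group and -0.19 to 1.15 in the rare group.

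**Figure D2:**
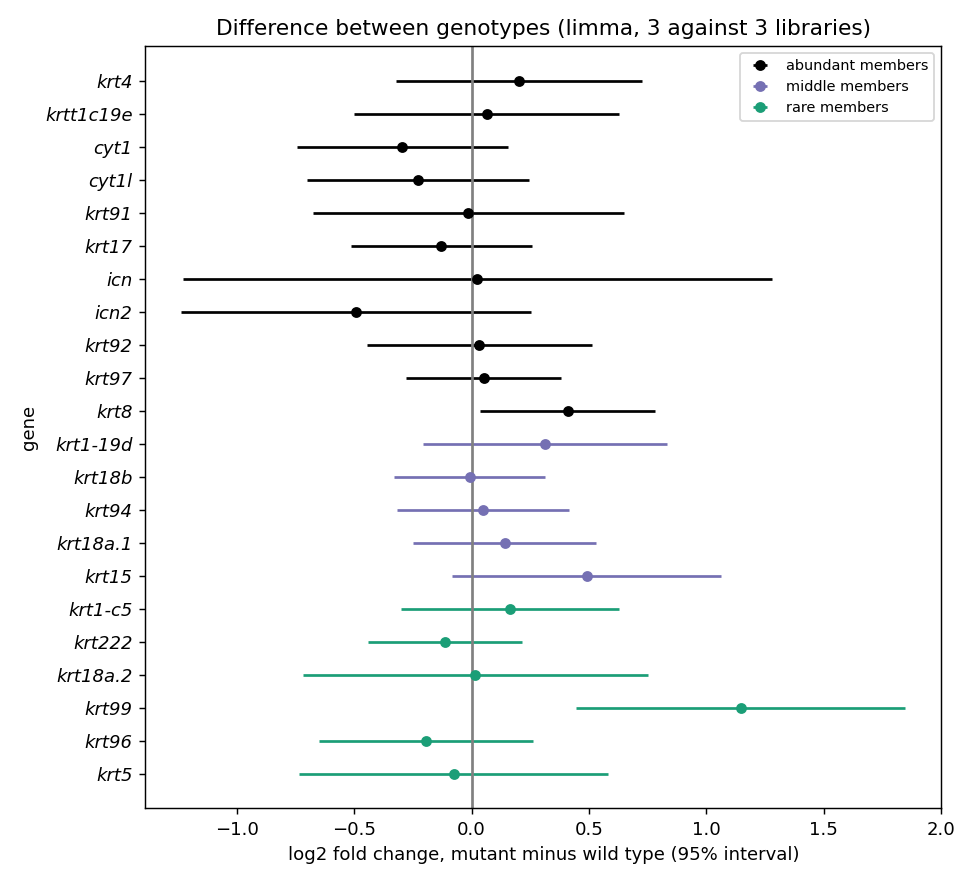
Log2 fold change of the 22 tested members, mutant minus wild type, with 95% intervals from limma (3 against 3 libraries), ordered from the highest level at the top to the lowest. The intervals of krt8 and krt99 lie above 0, those of the other 20 members include 0, and no member passed after adjustment over all genes.

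Among the type II keratins, krt4, a main keratin of the larval epidermis whose promoter is widely used to drive expression in fish skin, was the most abundant member (GRCz11 chromosome 6, 39308498 to 39313027). It stood at 2751, 2769 and 2709 FPKM in WT libraries 1 to 3 and at 2986, 3618 and 2906 FPKM in mutant libraries 1 to 3. All mutant libraries were above all wild-type libraries, and the wild-type values lay within a narrow band. The log2 fold change was 0.20 (limma adjusted p = 0.944, SE 0.23). Without mutant library 2 it was 0.10, and with quantile normalization 0.41 (adjusted p = 0.597).

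The gene krt8 encodes a keratin of simple epithelia (chromosome 23, 10249626 to 10254288), known in zebrafish from the outer layer of the embryo. Its level was 147, 114 and 107 FPKM in WT libraries 1 to 3 and 155, 173 and 156 FPKM in mutant libraries 1 to 3. Wild-type library 1 came close to the lowest mutant library, while the others lay well below. The log2 fold change was 0.41 (limma adjusted p = 0.839, 95% interval 0.04 to 0.78, SE 0.16). Notochord also holds krt8 and krt18 transcripts in fish. The 7 notochord markers summed to 334.7 to 350.0 FPKM in WT and 344.2 to 409.9 FPKM in mutants, with tbxta at 2.64 ± 0.475 and 3.75 ± 0.308 FPKM (SD, n = 3) and col8a1a at 0 throughout. Of the 5 notochord markers tested, 4 had higher means in mutants on the log scale. The 1 with a lower mean was cav1, at 78.9 ± 21.3 FPKM in WT and 60.7 ± 6.0 in mutants. The part of notochord in the krt8 values was not tested.

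The third type II gene, krt5, a keratin known from skin, was among the rarest tested members (chromosome 23, 10173196 to 10177458). It had 17 to 51 reads per library, at 1.48, 0.879 and 0.539 FPKM in WT libraries 1 to 3 and 1.07, 0.803 and 0.684 FPKM in mutant libraries 1 to 3. The groups overlapped. An unnamed gene model on an alternate contig of chromosome 23, annotated in the deposited table with the same keratin hit as krt5, starts 37 bases from the krt5 start on the same strand. That model stood at 295, 267 and 247 FPKM in WT libraries 1 to 3 and at 262, 286 and 247 FPKM in mutant libraries 1 to 3. The named krt5 model thus held 0.217% to 0.498% of the FPKM of the pair, and its low level is uncertain as a level of the gene. With the pair summed, krt5 would be in the abundant class, at 270.7 ± 24.3 FPKM in WT and 265.6 ± 19.5 in mutants (SD, n = 3).

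Such unnamed models also lie beside krt4, krt8 and the type I gene krt18b, with starts 9544, 3829 and 9179 bases away on the alternate contigs, the same annotation and the same strand. They were looked for after the krt5 level had been seen. The likeness of the sequences was not tested, but reads of alike copies can be split by the authors' counting, so levels of these 4 genes are uncertain. The model beside krt4 stood at 1422 ± 61.9 FPKM in WT and 1401 ± 151 in mutants, and the one beside krt8 at 128 ± 15.7 and 123 ± 5.26 (SD, n = 3). Neither alternate model separated the genotypes, in contrast to the named models of krt4 and krt8.

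The share of each pair held by the named model was also read within each library. The named krt8 model held 50.2%, 48.9% and 47.5% of the FPKM of its pair in WT libraries 1 to 3 and 56.1%, 57.5% and 56.9% in mutant libraries 1 to 3. For krt4 the share was 67.0%, 65.3% and 65.3% in WT and 69.0%, 69.7% and 69.3% in mutants. For krt18b it was 61.2%, 64.5% and 62.4% in WT and 59.7%, 59.3% and 58.6% in mutants. Shares of krt4 and krt8 were thus higher in every mutant library and that of krt18b lower, each with an exact two-sided permutation p of 0.1, the smallest that 3 against 3 libraries can give. The share of krt5 overlapped (exact permutation p = 0.8). Of all 1401 such pairs in the table, matched by the same protein annotation and strand within 20000 bases and with both models tested, 20.8% had shares that did not overlap, 11.8% as higher and 8.99% as lower. With the copies summed, the log2 fold change fell to 0.19 for krt8 (limma adjusted p = 0.93, SE 0.16) and to 0.13 for krt4 (SE 0.25, adjusted p = 0.967). The genotypes then overlapped for both genes. The summed krt8 level of wild-type library 1, 292 FPKM, lay above those of mutant libraries 1 and 3, 277 and 274, and the summed krt4 level of wild-type library 2, 4240 FPKM, lay above that of mutant library 3, 4195. A change of transcript level and a change in how reads were placed between the copies cannot be told apart in these values.

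**Figure D3:**
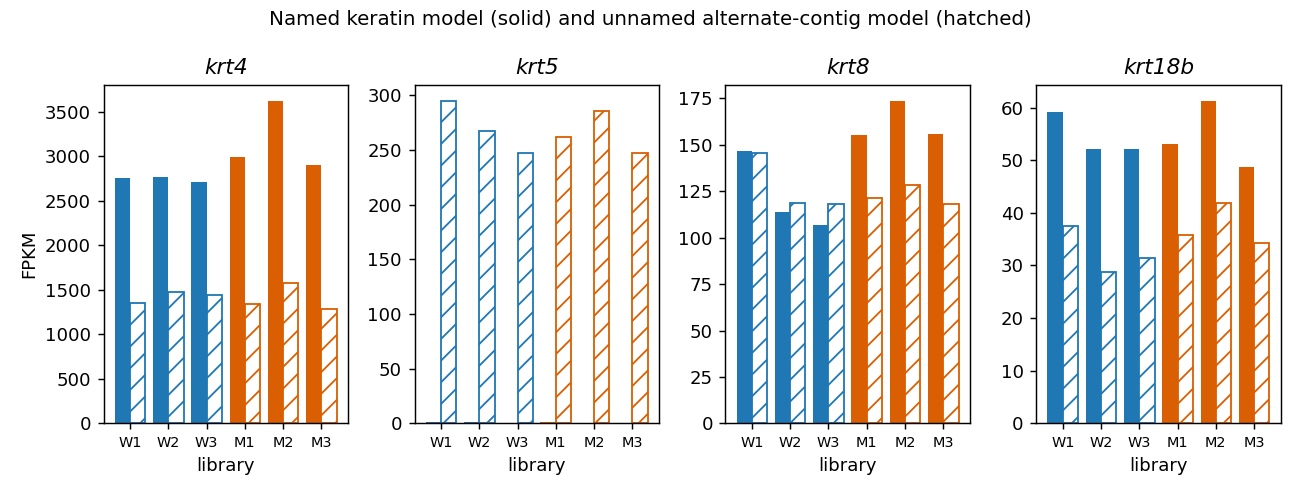
FPKM in wild-type libraries 1 to 3 (W1 to W3, blue) and mutant libraries 1 to 3 (M1 to M3, orange) of 4 named keratin models (solid bars) and of the unnamed model at the matching place on an alternate contig (hatched bars). For krt5 almost all signal is in the unnamed model, and for krt8 the named model exceeds the unnamed one in every mutant library but lies below it in wild-type libraries 2 and 3.

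Most of the type I level came from 7 genes lying in tandem on the minus strand of chromosome 19 (5324653 to 5380770). Of these, cyt1 and krt17 are known as keratins of the outer layer, cyt1l is named for its likeness to cyt1, and krtt1c19e is a marker of basal keratinocytes. The 7 genes summed to 6214, 4345 and 4243 FPKM in WT libraries 1 to 3 and to 4400, 5236 and 4140 FPKM in mutant libraries 1 to 3. The groups overlapped, with wild-type library 1 the highest. The genes are close relatives, and reads shared between them could be assigned to either, so levels of single genes carry that uncertainty.

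The gene krtt1c19e stood at 2081, 1404 and 1353 FPKM in WT libraries 1 to 3 and at 1609, 1883 and 1491 in mutant libraries 1 to 3. The level of cyt1 was 1214, 946 and 961 FPKM in WT and 812, 947 and 777 in mutants, and that of its neighbour cyt1l was 1105, 838 and 808 FPKM in WT and 731, 897 and 711 in mutants. The groups overlapped for all 3 genes, for cyt1 only because mutant library 2 lay just above wild-type library 2. The log2 fold change was 0.06 for krtt1c19e (SE 0.24), -0.30 for cyt1 (SE 0.19) and -0.23 for cyt1l (SE 0.21), with limma adjusted p from 0.925 to 0.982. Mutant libraries 1 and 3 lay below every wild-type library for both cyt1 and cyt1l.

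In the rest of the cluster, krt91 stood at 1134, 591 and 574 FPKM in WT libraries 1 to 3 and at 707, 826 and 640 in mutants, so that wild-type library 1 alone lay above the mutants. The outer-layer keratin krt17 stood at 383, 365 and 365 FPKM in WT and 319, 405 and 302 in mutants, and krt92 at 226, 154 and 140 in WT and 163, 200 and 160 in mutants. The least abundant gene of the cluster, krt1-19d, had 71.3, 46.4 and 41.8 FPKM in WT and 58.3, 78.7 and 58.2 in mutants. None of these 4 genes separated the genotypes, and their log2 fold changes ran from -0.13 for krt17 to 0.31 for krt1-19d.

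The share of each gene in the cluster was read within each library, so that a shift of the whole cluster does not enter. As a share of the summed FPKM of the 7 genes, krtt1c19e held 33.5%, 32.3% and 31.9% in WT libraries 1 to 3 and 36.6%, 36.0% and 36.0% in mutant libraries 1 to 3. The share of cyt1 was 19.5%, 21.8% and 22.7% in WT and 18.4%, 18.1% and 18.8% in mutants. That of cyt1l was 17.8%, 19.3% and 19.04% in WT and 16.6%, 17.1% and 17.2% in mutants. The share of krtt1c19e was thus higher in every mutant library, although its level overlapped, and those of cyt1 and cyt1l were lower. The share of the outer-layer keratin krt17 overlapped, at 7.72% ± 1.36 in WT and 7.42% ± 0.265 in mutants (SD, n = 3).

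The shares of krt92, at 3.50% ± 0.176 in WT and 3.8% ± 0.0798 in mutants, and of krt1-19d, at 1.07% ± 0.0805 and 1.41% ± 0.0885 (SD, n = 3), were also higher in every mutant library. Those of krt17 and krt91 overlapped, with wild-type library 1 lowest for krt17, at 6.16%, and highest for krt91, at 18.2%. In all, 5 of the 7 shares did not overlap between genotypes, 3 higher and 2 lower, each with an exact two-sided permutation p of 0.1, the smallest possible. When the FPKM of each of the 23855 genes tested was divided by the same cluster sum, 10.2% did not overlap, 8.23% as higher and 2.0% as lower. Each of the 7 genes is part of that sum, unlike the other genes. The 10.2% is thus not a like background, and no excess can be read from it. The 7 shares sum to a fixed total, so one moving up requires others to move down, and the measure was chosen after the levels had been seen.

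**Figure D4:**
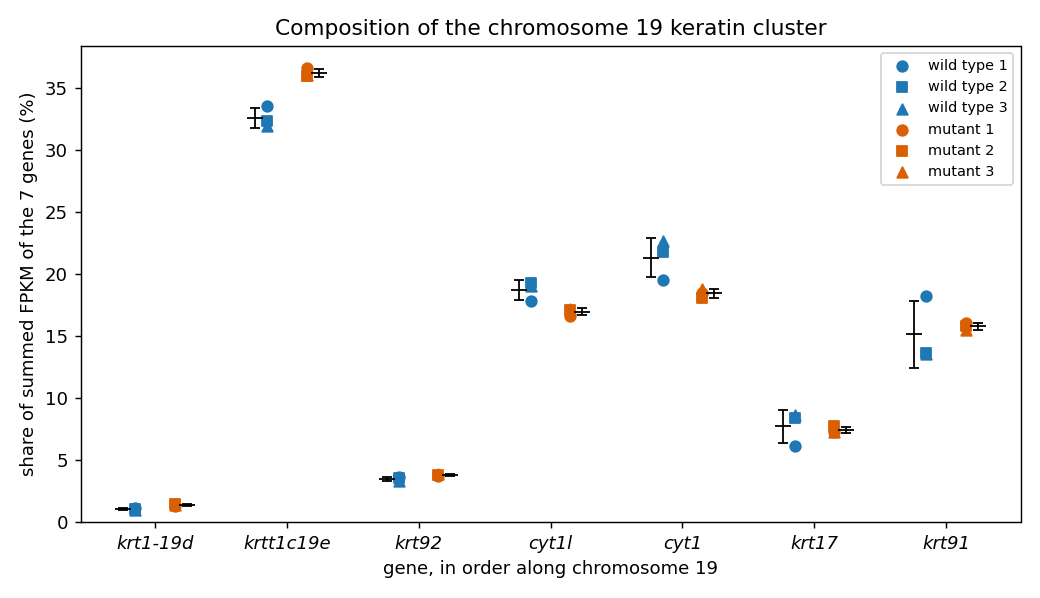
Share of the summed FPKM of the chromosome 19 cluster held by each of its 7 genes, in percent, with a mark for each library and the mean and SD of each genotype in black (n = 3). The mutant libraries lie close to each other for every gene, above wild type for krtt1c19e and below it for cyt1 and cyt1l.

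Summed by type, type I keratins stood at 6523, 4622 and 4513 FPKM in WT libraries 1 to 3 and at 4695, 5582 and 4412 FPKM in mutant libraries 1 to 3. Type II keratins, nearly all krt4, stood at 2899, 2883 and 2817 FPKM in WT and at 3143, 3792 and 3062 FPKM in mutants. Type I levels overlapped and type II levels were higher in every mutant library. With the unnamed models beside krt4, krt5 and krt8 added, type II levels were 4692, 4740 and 4625 FPKM in WT and 4868, 5780 and 4717 FPKM in mutants, and the groups overlapped. An unnamed type II model beside zgc:158846, which is not a member, was not added. It stood at 36.1 ± 1.12 FPKM in WT and 25.1 ± 2.94 in mutants (SD, n = 3), lower in every mutant library. The ratio of type I to type II was 2.25, 1.60 and 1.60 in WT and 1.49, 1.47 and 1.44 in mutants. With the models beside krt4, krt5, krt8 and krt18b added, the ratio was 1.40, 0.981 and 0.983 in WT and 0.972, 0.973 and 0.943 in mutants. Both ratios were lower in every mutant library than in every wild-type library. With the models added the gap became small outside wild-type library 1, at 0.981 for the lowest wild-type and 0.973 for the highest mutant library.

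**Figure D5:**
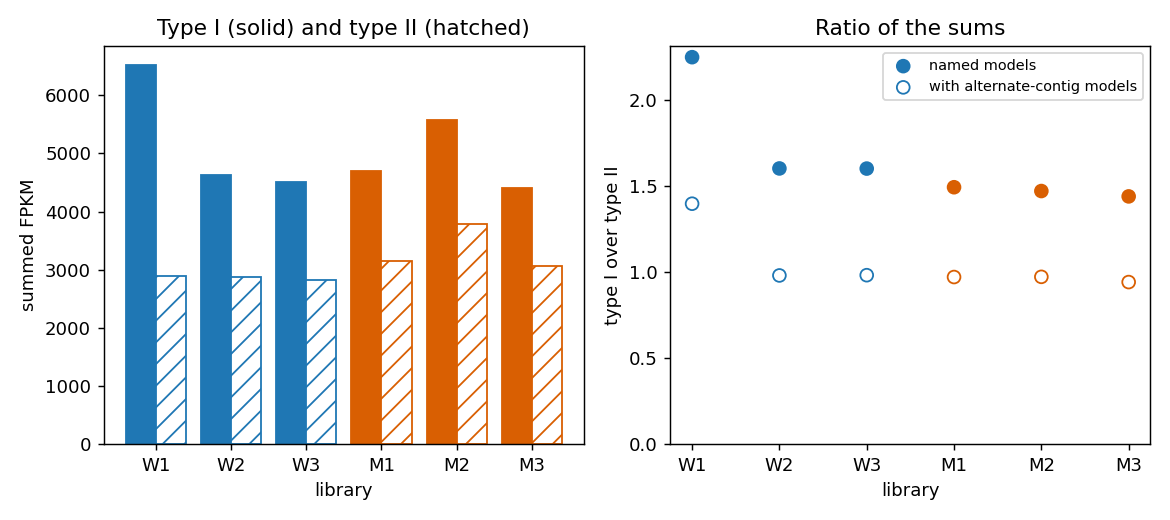
Left, summed FPKM of type I keratins (solid bars) and type II keratins (hatched bars) in wild-type libraries 1 to 3 (W1 to W3, blue) and mutant libraries 1 to 3 (M1 to M3, orange). Right, ratio of the sums, from named models (filled) and with the alternate-contig models beside members added (open). Wild-type library 1 stands apart at 2.25 and 1.40.

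Outside chromosome 19, the abundant type I gene krt97 (chromosome 22) stood at 162, 159 and 150 FPKM in WT libraries 1 to 3 and at 156, 185 and 148 in mutants; the log2 fold change was 0.05 (95% interval -0.28 to 0.38). Of the middle group, the simple epithelial keratins krt18b and krt18a.1, partners of krt8, stood at 54.5 ± 4.07 against 54.3 ± 6.37 FPKM and at 20.0 ± 1.97 against 22.3 ± 4.0 (wild type against mutants, SD, n = 3). These type I partners overlapped between genotypes. The gene krt15, on chromosome 11, had 22.6, 14.9 and 12.4 FPKM in WT and 22.4, 28.9 and 18.5 in mutants; the log2 fold change was 0.49 (limma adjusted p = 0.892, SE 0.25). The last middle gene, krt94, stood at 24.7 ± 4.35 and 25.3 ± 2.22 FPKM.

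Of the rare members, krt99 had the largest difference of the 22 tested (chromosome 11, 11565996 to 11575070). It had 45, 22 and 12 reads in WT libraries 1 to 3 and 56, 82 and 75 in mutant libraries 1 to 3, or 1.70, 0.841 and 0.496 FPKM against 2.22, 3.18 and 2.67. All mutant libraries were higher. The log2 fold change was 1.15 (limma adjusted p = 0.733, 95% interval 0.44 to 1.85, SE 0.30), and at a pseudocount of 1 it was 0.91.

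The remaining tested rare members showed smaller differences. The levels of krt1-c5 were 7.45 ± 1.5 FPKM in WT and 8.39 ± 1.67 in mutants, of krt222 6.41 ± 0.196 and 5.91 ± 0.616, of krt18a.2 3.08 ± 1.06 and 3.19 ± 1.26, and of krt96 1.57 ± 0.236 and 1.31 ± 0.196 (SD, n = 3). All 4 overlapped between genotypes. Below the filter, krt93 had 4 to 9 reads per library, krt98 had 3, 0 and 2 reads in WT and 4, 6 and 11 in mutants, and krt95 had 1 read in wild-type library 1 alone. All mutant libraries were above all wild-type libraries for krt98, at these few reads. These 3 genes were not tested.

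The ictacalcin genes lie on chromosome 16, and wild-type library 1 was the highest library for both. The gene icn stood at 616, 145 and 139 FPKM in WT libraries 1 to 3 and at 225, 317 and 182 in mutant libraries 1 to 3. Its mean FPKM was lower in mutants (242 against 300), while its log2 fold change was 0.02 (95% interval -1.23 to 1.28), since wild-type library 1 carried the wild-type mean. Without wild-type library 1 the log2 fold change was 0.73. The gene icn2 stood at 335, 169 and 159 FPKM in WT and 133, 204 and 119 in mutants. Its log2 fold change was -0.49 (limma adjusted p = 0.924, SE 0.32), and -0.15 without wild-type library 1. Both genes are short, at 408 and 434 bases. Tested genes under 600 bases had a median deviation of 0.20 on the log2 scale in wild-type library 1, against -0.08 to 0.01 in the others. The deviation in wild-type library 1 was 1.40 for icn and 0.93 for icn2. The cause of these high values was not tested. With the trend on gene length removed from each library, the log2 fold change was 0.10 for icn (limma adjusted p = 0.978) and -0.42 for icn2 (adjusted p = 0.845).

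Without wild-type library 1 and mutant library 2, 9 of the 22 members (40.9%) passed limma, beside 18.6% of all genes. Higher were icn, krt1-19d, krt15, krt8 and krt99, or 22.7% of the members beside 9.15% of all genes, and lower were cyt1, cyt1l, icn2 and krt17, or 18.2% beside 9.42%. The libraries left are the pairs that resembled each other most in these same data, so genotype and pair cannot be told apart there. The spread within each group is small by that choice, and the adjusted p-values of that fit do not measure an error rate. The log2 fold changes in that fit were 0.50 for krt8 (adjusted p = 0.00789), 1.35 for krt99 (adjusted p = 0.0189), -0.26 for cyt1 (adjusted p = 0.0205) and -0.19 for cyt1l (adjusted p = 0.0445). With library quality weights, which were lowest for the same 2 libraries, krt15, krt8 and krt99 passed as higher, or 13.6% of the members, beside 20.3% of all genes, of which 9.62% were higher and 10.7% lower. Over 19 alternatives the adjusted p of krt8 ranged from 0.00789 to 1, that of cyt1 from 0.0205 to 1 and that of cyt1l from 0.0445 to 1. That of krt99 ranged from 0.0125 to 1 over 18 alternatives, since a filter of a mean of at least 5 FPKM removed this gene.

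Genes that anchor keratin filaments also had 0 members passing limma with all 6 libraries at equal weight. Of 15 tested genes of desmosomes and plakins, 9 had higher and 6 lower means on the log scale in mutants, with a median log2 fold change of 0 and 1 at an unadjusted p under 0.05. That gene was ppl, which encodes periplakin, a linker between keratins and the cell periphery, at 46.4 ± 0.461 FPKM in WT and 56.2 ± 0.761 in mutants (SD, n = 3, limma adjusted p = 0.867). All mutant libraries were above all WT libraries for 3 of the 15, ppl, evplb and dspa, and for none were they all below, beside 5.16% and 5.4% of all genes. Without wild-type library 1 and mutant library 2, 4 of the 15 passed as higher (dsg2.1, dspa, evplb and ppl) and 2 as lower (perp and pkp3a), beside the 9.15% and 9.42% of all genes in that fit. With library quality weights the same 4 passed as higher and 1, perp, as lower, beside 9.62% and 10.7% of all genes. Passes in these 2 fits carry the limits given above, here and for the lists below.

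Of 12 tested genes of hemidesmosomes and the epidermal basement membrane, 6 had higher and 6 lower means, and 0 had an unadjusted p under 0.05. In this list lama5, a laminin chain gene, passed as higher without the 2 libraries, and 0 genes passed with weights, beside 18.6% and 20.3% of all genes. With all 6 libraries the direction of lama5 was the opposite, at a log2 fold change of -0.04 (limma adjusted p = 0.991). Its lowest library was mutant library 2, at 6.14 FPKM, which that fit leaves out. Of 17 tested genes of other intermediate filaments, 16 had higher means in mutants, with a median log2 fold change of 0.17, beside 11937 of all 23855 genes with higher means. Of the 17, only 1 had an unadjusted p under 0.05, 3 stood apart as higher (lmnb1, lmnb2 and nes) and 1 as lower. Of all genes, 5.16% stood apart as higher and 5.4% as lower. The gene with a lower mean, which was also the one under 0.05 and the one apart as lower, was viml, a vimentin-like gene, at 2.88 ± 0.349 and 1.66 ± 0.204 FPKM (limma adjusted p = 0.748). In each of the same 2 fits, without the 2 libraries and with weights, bfsp2, desma, nefma, nefmb and vim passed as higher and viml as lower. With all 6 libraries the genotypes overlapped for bfsp2, desma, nefma, nefmb and vim. Wild-type library 1 was the highest library for bfsp2, nefma and nefmb, and mutant library 2 for desma and vim. Of all genes, 9.15% passed as higher and 9.42% as lower without the 2 libraries, and 9.62% and 10.7% with weights. Of the 17 tested epidermal markers and regulators, 6 had higher and 11 lower means, with a median of -0.04, and none had an unadjusted p under 0.05. Without the 2 libraries 1 of them passed as higher (grhl1) and 3 as lower (agr1, anxa1b and cldne), and with weights grhl1 alone passed, beside the same shares of all genes.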

How the data were processed

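The submitters' processing notes name the GRCz11 build, HISAT2 2.0.5 and featureCounts, beside FastQC and DESeq2; the annotation release, strand setting and filters were not given in the sources used here. Libraries were poly-A selected, per the labels' protocols. The authors deposited FPKM values with gene length, position and annotation. No sequence of these genes was used here, and 0 columns of per-sample values were left unused.

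Multiplied by gene length, 100% of FPKM values above 0 were whole multiples of the smallest one in their library (tolerance 1e-06), which gave reads per gene. Rescaling by median of ratios could change nothing, since its factor was already 1 in every library.

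Tests used limma 3.58.1 in R 4.3.3 with a variance trend on log2(FPKM + 0.5), for genes averaging 0.5 FPKM or more, two-sided, Benjamini-Hochberg adjusted over all 23855 genes, threshold 0.05. Fold changes are on this scale, which understates those of low genes. The fit was also run on simulated data with independent noise for each gene. Those data lack the likeness between libraries seen here, so that run does not bear on its effect. Nothing says that replicates came from separate pools, so p-values measure spread that may be technical. Of the 25 IDs, 25 matched the gene name table, 23 with the same symbol; there krtt1c19e is krt1-19e and krt96 has a clone name.

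Members and lists were chosen with earlier results of these data known. Named were all abundant members, members with an unadjusted p under 0.05, the 5 largest changes, members needed to account for small counts, and up to 2 genes of smallest p per list; other members are given for completeness. Alternatives varied pseudocount, filter, scaling, weights, voom, block, libraries, contigs and class limits. Alternate-contig sums, a length trend removed by lowess, and filament keratins alone were added after seeing the data. A planned count test with edgeR was not run, since the deposited unit is FPKM, and limma voom on the recovered reads was run instead.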

Additional observations from a re-analysis of the deposited data

How the results depend on the processing

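No member passed limma in the test as reported or in 17 of its 19 alternatives. The median-of-ratios rescaling, 1 of the 17, could not differ from the test as reported. With library weights 3 members passed (krt15, krt8 and krt99) and 4849 genes over the whole table, and with wild-type library 1 and mutant library 2 left out these were 9 and 4429. The adjusted p-values of these 2 fits do not measure an error rate. Over all genes 2 passed with a filter of a mean of at least 5 FPKM and 2 with quantile normalization. With each library left out in turn, 0 members and 0 genes passed.

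The direction of krt91 turned with library weights (log2 fold change 0.195), voom (0.007) and without both named libraries (0.207), and that of krt97 with weights (-0.001) and without both libraries (-0.02). The cause was not tested. Leaving out 1 library at a time gave -0.343 to 0.73 for icn, -0.185 to 0.306 for krt91, -0.105 to 0.24 for krt92, -0.043 to 0.118 for krt97, -0.048 to 0.262 for krtt1c19e and -0.009 to 0.336 for the basement membrane gene hmcn1. Over the alternatives the class medians ranged from -0.14 to 0.204 (abundant), 0.045 to 0.293 (middle) and -0.12 to 0.092 (rare), each shift under 1 SD between replicates. With alternate-contig models summed, krt5 was still counted as rare, by the level of its named model, so the medians with krt5 as abundant were not computed.

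Correlations of deviations were 0.053, 0.012 and 0.106 for equal replicate numbers 1, 2 and 3, and -0.102 to 0.038 for unequal numbers. These values do not settle whether replicate numbers pair the samples. With the replicate block 0 members and 0 genes passed. Depth limits krt93, krt98 and krt95, and intervals of most members include differences in either direction.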
